A study of Homo sapiens with 12 samples.

Results

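The aryl hydrocarbon receptor and its CYP1 target enzymes were examined in Ishikawa cells, an established human line derived from an endometrial adenocarcinoma. The set held 7 genes, chosen by name: AHR, AHRR, TIPARP, CYP1A1, CYP1A2, CYP1B1 and NQO1. Every probe set whose platform symbol was one of these was taken, which gave 13 of the 54613 probe sets tested and 7 of 19775 genes. The set was put together with earlier results in view, namely that CYP1A1 was lower with metastin-10 under control siRNA and higher in arrays labelled GPR54 siRNA (GPR54-labelled arrays) when metastin-10 was present. Those comparisons, and the difference of peptide effects built from them, are therefore described by their values, without p-values. Where calls are counted in them, the counts only describe how the set was chosen and support nothing. P-values are given only for the peptide comparison in GPR54-labelled arrays and for the siRNA comparison with control peptide.

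RNA of 4 groups, each with 3 replicates, was hybridised to 12 Affymetrix U133 Plus 2.0 arrays. All cells were transfected for 48 h and then given a peptide for 24 h. Both a negative control siRNA and a GPR54-specific siRNA were combined with a control peptide and with 10 µM metastin-10. Metastin-10, or kisspeptin-10, is the active end of kisspeptin, and its receptor GPR54 is encoded by KISS1R. By its labels, the crossed layout addresses the response to metastin-10 and its dependence on GPR54. The arrays do not show that the siRNA lowered GPR54 mRNA, as described below. The labels call the 3 arrays of a group biological replicates, all of a single cell line, and do not say how the cultures were separated, so the p-values measure only the spread between these arrays.

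AHR is a ligand-activated transcription factor that waits in the cytoplasm bound to HSP90. After binding a ligand such as a planar aromatic hydrocarbon, an indole or a kynurenine, it enters the nucleus, pairs with ARNT and binds the xenobiotic response element, whose core is GCGTG. It induces CYP1A1, CYP1A2 and CYP1B1, which oxidise aromatic compounds and hydroxylate oestradiol, together with NQO1, a quinone reductase that is also a target of NRF2. It also induces AHRR, which competes with it for ARNT, and TIPARP, an ADP-ribosyltransferase that dampens its activity. ARNT is also the partner of the hypoxia-inducible factors, whose element has the core ACGTG or GCGTG, so the GCGTG core belongs to both motifs.

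Of the 7 genes, 6 matched a promoter in the RefSeq table (GRCh38.p14), some with several start sites, 9 in all. CYP1B1 had no entry. The 250 bases upstream of the start site are shown for CYP1A1, the gene with the largest difference in the set, for CYP1A2, which lies next to it on chromosome 15 with no other gene of the table between, and for NQO1, a target at which little difference was measured. They run 5′ to 3′ on the strand of the gene, from chr15:74725529-74725778 (minus strand), chr15:74748595-74748844 (plus strand) and chr16:69726561-69726810 (minus strand). Capitals mark each GCGTG or TATAAA, read on either strand; the second is a TATA box motif.
CYP1A1: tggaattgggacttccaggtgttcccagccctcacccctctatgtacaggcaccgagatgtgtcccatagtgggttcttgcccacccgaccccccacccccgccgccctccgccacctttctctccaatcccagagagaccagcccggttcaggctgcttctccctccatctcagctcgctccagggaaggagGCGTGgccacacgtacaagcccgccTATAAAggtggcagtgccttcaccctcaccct
CYP1A2: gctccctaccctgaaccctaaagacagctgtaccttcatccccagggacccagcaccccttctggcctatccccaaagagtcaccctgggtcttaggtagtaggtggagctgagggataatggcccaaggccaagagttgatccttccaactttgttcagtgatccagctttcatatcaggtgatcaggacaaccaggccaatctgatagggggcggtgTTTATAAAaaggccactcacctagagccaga
NQO1: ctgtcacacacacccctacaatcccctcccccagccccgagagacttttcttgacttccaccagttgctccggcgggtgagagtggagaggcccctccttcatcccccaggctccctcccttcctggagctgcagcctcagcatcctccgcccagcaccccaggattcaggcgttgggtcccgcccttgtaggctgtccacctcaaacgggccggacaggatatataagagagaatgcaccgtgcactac

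The CYP1A1 window held 1 GCGTG, at position -57 from the start site, and 1 TATAAA, at -32. The ACGTG core was also found there once, on the opposite strand at -48, next to the GCGTG without overlapping it. GCGTG occurred in 32.2%, TATAAA in 10.7% and ACGTG in 18.5% of all 35116 promoter windows of this length, searched on both strands. CYP1A2 held TATAAA, overlapping on both strands, and no GCGTG or ACGTG, and NQO1 held none of the 3. The longer form TNGCGTG, present in 4.52% of windows, was found for 1 of the 2 start sites of AHRR and for no other gene of the set. GCGTG alone was found at both AHRR start sites and, 2 times, at 1 of the 3 TIPARP start sites. AHR had no GCGTG and an ACGTG on each strand at the same place. The NRF2 motif TGACNNNGC, in 10.9% of windows, was in none of the 9. These are matches of letters in a short window, and the known response elements of CYP1A1 lie further upstream than it. For every gene, bases outside the window were not searched, so a missing motif is not read as a contrast with CYP1A1.

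The targeted gene and the cell identity were checked first. KISS1R did not read lower under the GPR54 siRNA label: it lay between 9.28 and 9.60 on the log2 scale in those 6 arrays, between 9.14 and 9.39 in the double control group (control siRNA, control peptide), and between 8.35 and 8.43 under control siRNA with metastin-10. The siRNA groups are therefore named by their label only. Replicate 3 had the highest score of its group on the first principal component in all 4 groups. With control siRNA and metastin-10, replicates 1 and 2 scored 41.95 and 29.24 on the second component and replicate 3 scored -15.47. The 6 epithelial markers (KRT8, KRT18, KRT19, EPCAM, CDH1 and MUC1) had a mean log2 level of 11.74 to 12.10 per array and the 6 measured endometrial and Müllerian markers one of 8.11 to 8.42. The corresponding ranges were 5.18 to 5.31 for stromal fibroblast, 4.83 to 5.09 for endothelial and 4.10 to 4.56 for leukocyte markers, near or below the array medians of 5.13 to 5.22.

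AHR, the receptor itself, had overlapping groups in all 4 pairwise comparisons of the design. Its probe set read 7.58, 7.66 and 7.45 (log2, replicates 1, 2 and 3) in the double control group, and 7.41, 7.58 and 7.49 with control siRNA and metastin-10. GPR54-labelled arrays gave 7.62, 7.63 and 7.63 with control peptide and 7.73, 7.65 and 7.34 with metastin-10. The lowest single value was replicate 3 of the last group. Outside those comparisons, the control siRNA, metastin-10 arrays all lay below the GPR54-labelled arrays with control peptide, which differ in both siRNA label and peptide. The metastin-10 difference under control siRNA was -0.07 ± 0.10 (log2, SE; 95% interval -0.30 to 0.15), so a change of AHR mRNA as large as that of CYP1A1 lies outside the interval. In GPR54-labelled arrays it was -0.06 (95% interval -0.28 to 0.17, limma adjusted p = 1). The GPR54 siRNA label with control peptide gave 0.06 (-0.16 to 0.29, limma adjusted p = 0.9998).

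CYP1A1, the most inducible enzyme of the family and the usual readout of receptor activity, was low in a single group. It read 8.80, 8.95 and 8.91 (log2) in the double control group. Under control siRNA, metastin-10 arrays read 7.80, 7.69 and 7.92. GPR54-labelled arrays read 8.94, 8.92 and 8.93 with control peptide and 8.98, 8.91 and 8.80 with metastin-10. The 3 arrays of control siRNA with metastin-10 lay below the other 9, which ran from 8.80 to 8.98. The same 3 arrays had the lowest KISS1R values, and any link between the genes was not tested. The group means were 8.89 ± 0.07, 7.81 ± 0.11, 8.93 ± 0.01 and 8.90 ± 0.09 (SD, n = 3) in that order.

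The metastin-10 difference of CYP1A1 under control siRNA was -1.08 ± 0.09 (log2, SE; 95% interval -1.27 to -0.90), or 2.12-fold lower. Between same-numbered arrays it was -1.0, -1.26 and -0.99, so it was of like size in the replicate 3 arrays. With metastin-10, the GPR54-labelled arrays lay 1.09 ± 0.09 above control siRNA, a comparison that uses the same 3 low arrays. The metastin-10 effect differed by 1.05 ± 0.12 between the siRNA labels. These values chose the set, and no p-value is given for them. The 2 comparisons that did not choose it gave no call, though each shares arrays with a comparison that did. In GPR54-labelled arrays, metastin-10 minus control peptide was -0.03 (95% interval -0.22 to 0.15, limma adjusted p = 1), higher in 1 of 3 same-numbered pairs. The siRNA label with control peptide gave 0.04 (-0.14 to 0.23, limma adjusted p = 0.9998).

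**Figure D1:**
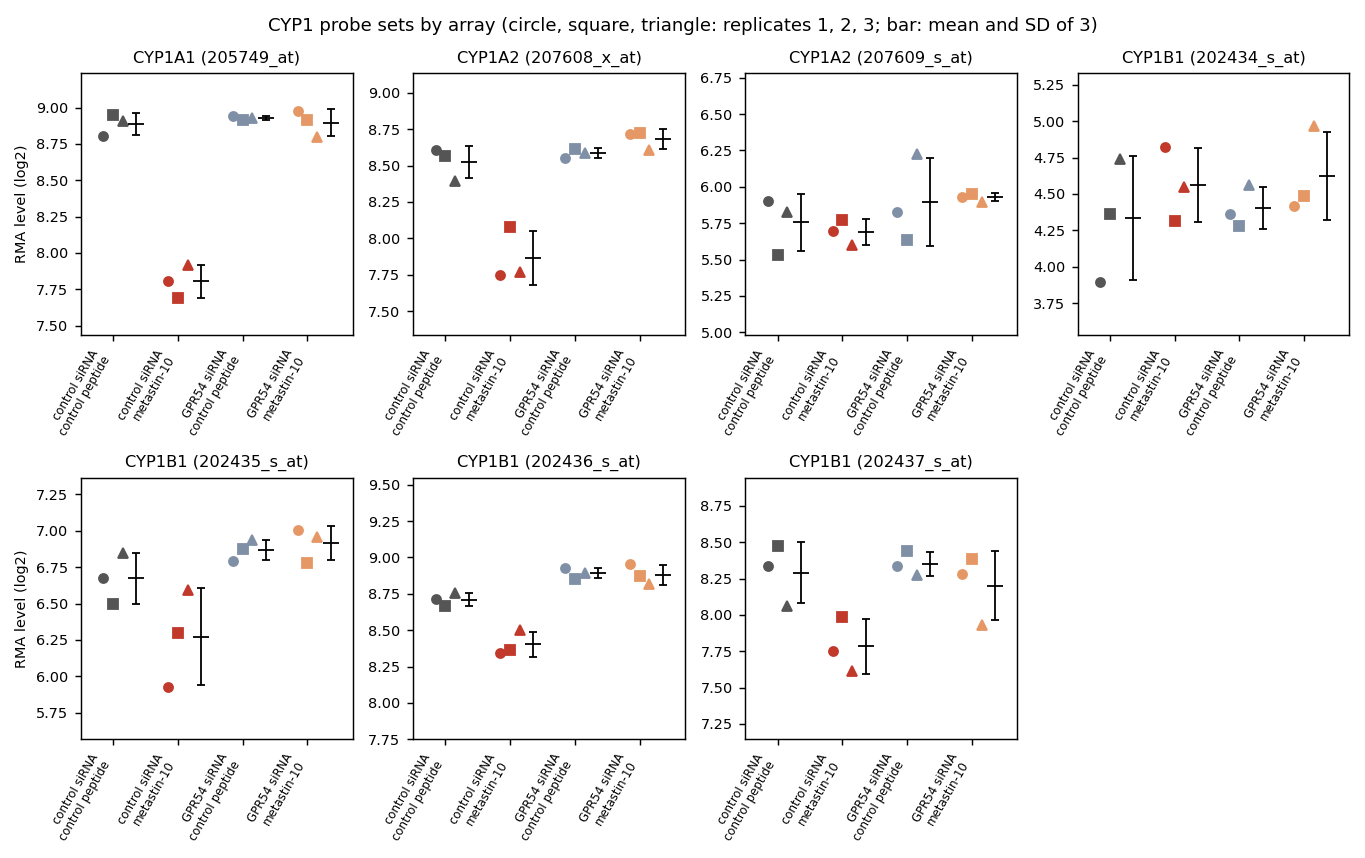
RMA level (log2, vertical axes of equal span) of the 7 CYP1 probe sets on each of the 12 arrays, with the mean and SD of each group of 3. Control siRNA with metastin-10 is the low group for CYP1A1, at 7.69 to 7.92 against 8.80 to 8.98 on the other arrays. It is also the low group for CYP1A2 207608_x_at. In both peptide comparisons the groups of CYP1A2 207609_s_at and of CYP1B1 202434_s_at overlap.

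CYP1A2, the liver member of the family, had 2 probe sets that differed from each other. The set 207608_x_at read 8.60, 8.57 and 8.40 in the double control group and 7.75, 8.08 and 7.77 with control siRNA and metastin-10. The GPR54-labelled arrays read 8.55, 8.62 and 8.59 with control peptide and 8.72, 8.72 and 8.60 with metastin-10. Again the 3 arrays of control siRNA with metastin-10 were the low ones, without overlap. The difference was -0.66 ± 0.10 (log2, SE; 95% interval -0.88 to -0.44), or 1.58-fold lower, and -0.86, -0.49 and -0.63 between same-numbered arrays. In GPR54-labelled arrays the metastin-10 difference was 0.10 (-0.12 to 0.31, limma adjusted p = 1).

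The other CYP1A2 probe set, 207609_s_at, ran from 5.53 to 6.23 over the 12 arrays with overlapping groups in both peptide comparisons. Its metastin-10 difference under control siRNA was -0.07 ± 0.14 (95% interval -0.37 to 0.23), an interval that does not reach the value of 207608_x_at. With metastin-10, 207609_s_at lay 0.24 ± 0.14 higher in GPR54-labelled arrays than under control siRNA (95% interval -0.06 to 0.54), without overlap. The corresponding value of 207608_x_at was 0.82 ± 0.10. In Affymetrix names, the ending _x_at marks a set with probes that may also match other sequences, and _s_at a set whose probes are shared by several transcripts. What else 207608_x_at may read was not tested, so its value is not taken as that of CYP1A2 mRNA.

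CYP1B1, the extrahepatic member that forms the 4-hydroxy catechol of oestradiol, was read by 4 probe sets. The brightest, 202436_s_at, read 8.71, 8.66 and 8.76 in the double control group and 8.34, 8.36 and 8.50 with control siRNA and metastin-10. Under the GPR54 label it read 8.93, 8.85 and 8.90 with control peptide and 8.95, 8.87 and 8.81 with metastin-10. The low group was the same as for CYP1A1, and the double control group lay between it and the GPR54-labelled arrays. The metastin-10 difference under control siRNA was -0.31 ± 0.08 (log2, SE; 95% interval -0.48 to -0.14), or 1.24-fold lower.

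Of the other CYP1B1 probe sets, 202437_s_at was at -0.51 ± 0.14 in that comparison, without overlap, and 202435_s_at at -0.40 ± 0.15, with overlap. The values of 202437_s_at were 8.33, 8.48 and 8.06 against 7.75, 7.98 and 7.61, and replicate 3 was the lowest of both groups. The same-numbered differences of these 3 sets were all below 0, from -0.74 to -0.20. The dimmest, 202434_s_at, ran from 3.89 to 4.97 over all arrays and was at 0.23 ± 0.21, with same-numbered differences of 0.93, -0.05 and -0.20, so that replicate 1 set its mean.

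In the comparisons that did not choose the set, CYP1B1 had no call. Metastin-10 in GPR54-labelled arrays gave between -0.15 and 0.22 over the 4 probe sets (limma adjusted p = 1 for each). With control peptide, the GPR54-labelled arrays lay 0.18 above control siRNA at 202436_s_at (95% interval 0.01 to 0.35, unadjusted p = 0.03806, limma adjusted p = 0.9998), without overlap. Groups did not overlap at 9.76% of all probe sets in that comparison, 5.2% higher, and 202436_s_at was the only member of the 13 among them. The difference between siRNA labels with metastin-10, 0.48 ± 0.08 at 202436_s_at, exceeded in size the metastin-10 difference under control siRNA. Both use the low group.

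AHRR, the repressor that AHR induces, had its lowest group mean with control siRNA and metastin-10 as well. It read 5.41, 5.46 and 5.34 in the double control group and 4.91, 5.24 and 5.18 with control siRNA and metastin-10, without overlap. The GPR54 label gave 5.55, 5.56 and 5.16 with control peptide and 5.54, 5.67 and 5.36 with metastin-10. Replicate 3 with the GPR54 label and control peptide fell within the range of the low group. These levels lie near the array medians, and the background level is unknown. The metastin-10 difference under control siRNA was -0.30 ± 0.13 (log2, SE; 95% interval -0.57 to -0.02) and in GPR54-labelled arrays 0.10 (-0.17 to 0.38, limma adjusted p = 1).

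TIPARP differed less. It read 7.97, 8.0 and 7.92 in the double control group and 7.85, 7.89 and 7.91 with control siRNA and metastin-10, without overlap by a small margin. With the GPR54 label the values were 8.20, 7.95 and 7.94 with control peptide and 8.09, 8.06 and 8.02 with metastin-10, and replicate 1 with control peptide was the highest of the 12. The metastin-10 difference under control siRNA was -0.08 ± 0.08 (95% interval -0.26 to 0.10). It was 0.03 (-0.15 to 0.21, limma adjusted p = 1) in GPR54-labelled arrays.

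NQO1 was measured by 3 probe sets, and their differences with metastin-10 under control siRNA lay above 0, at 0.03 ± 0.09, 0.09 ± 0.07 and 0.08 ± 0.07 (log2, SE). The set 201468_s_at read 11.64, 11.57 and 11.60 in the double control group and 11.65, 11.71 and 11.70 with control siRNA and metastin-10. The upper bounds of the 3 intervals were 0.22, 0.24 and 0.24. The lower bounds were -0.16, -0.07 and -0.08, so a fall of the size seen at CYP1A1 lies outside all 3. Under the GPR54 label the metastin-10 differences were -0.0051, -0.07 and 0.0019 (limma adjusted p = 1 for each).

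**Figure D2:**
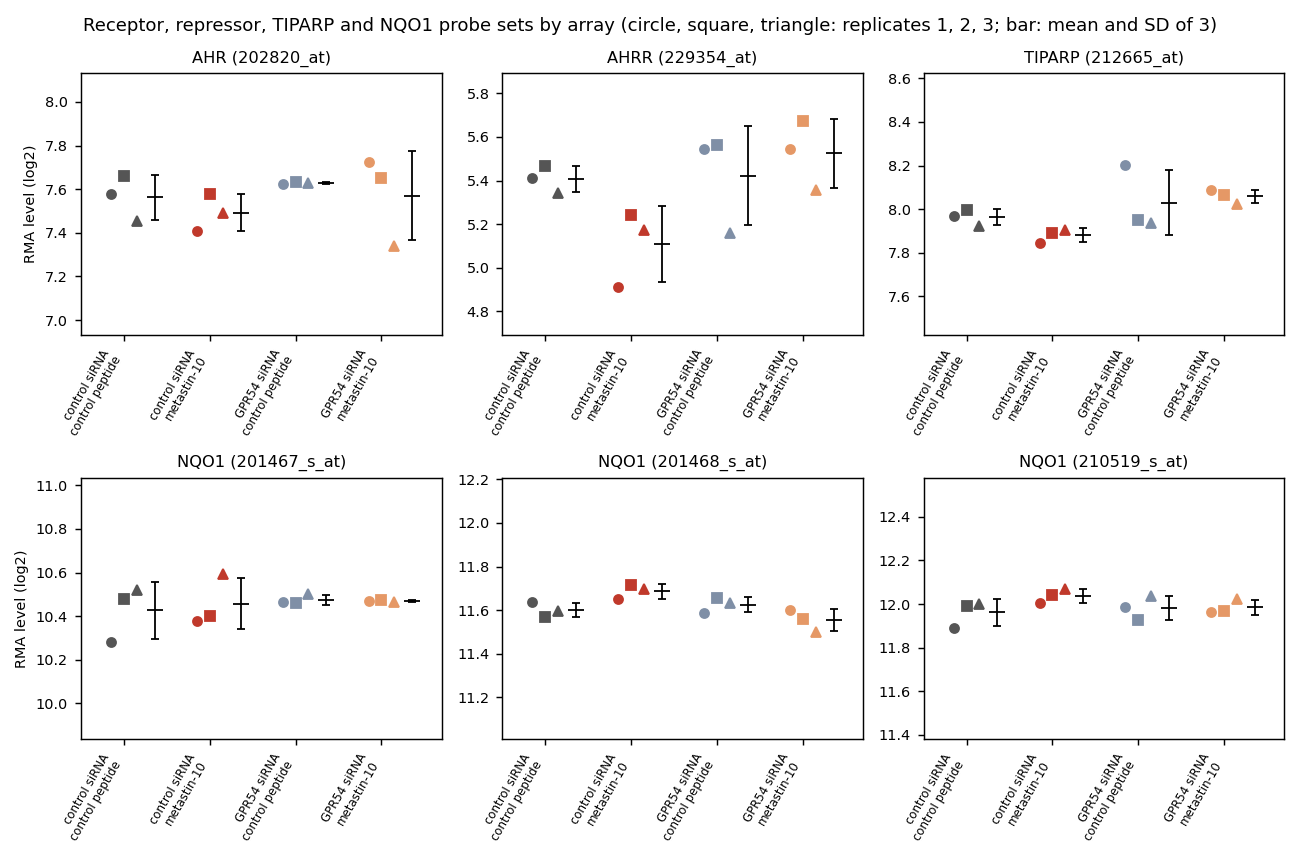
RMA level (log2, vertical axes of equal span) of the probe sets of AHR, AHRR, TIPARP and NQO1 on each of the 12 arrays, with the mean and SD of each group of 3. AHRR has its lowest mean with control siRNA and metastin-10 (4.91 to 5.24), a range that 1 GPR54-labelled array at 5.16 enters, while the groups of AHR overlap in each pairwise comparison of the design.

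Over the 13 probe sets, 2 were past the threshold (limma, adjusted p under 0.05) with metastin-10 under control siRNA, both lower: CYP1A1 and CYP1A2 207608_x_at. Among all probe sets 0.428% were called there in either direction and 0.386% lower. As the comparison chose the set, nothing is read from that count. Without overlap between the groups were 6 lower and 2 higher, against 8.72% lower, 7.91% higher and 16.6% either way of all probe sets. The median difference of the 13 was -0.08, against 0.01 over all probe sets, and with the replicate number as a block CYP1B1 202437_s_at passed as well.

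In GPR54-labelled arrays, metastin-10 gave 0 calls among the 13, as among all probe sets (0%). No probe set of the 13 was without overlap, against 5.57% of all. At an unadjusted p under 0.05 there were 0 of the 13 and 2.21% of all, and the differences lay between -0.15 and 0.22 with a median of 0.0019. The siRNA label with control peptide also gave 0 calls (0.0531% of all probe sets), and 1 of the 13 had an unadjusted p under 0.05, against 4.25% of all. All 13 differences were above 0 there, from 0.02 to 0.19, with a median of 0.06 against 0.01 over all probe sets. Several of the 13 read the same gene, and every interval but that of CYP1B1 202436_s_at covered 0. The share of all probe sets above 0 was not computed, so nothing is read from the shared sign. With metastin-10, 3 of the 13 were called higher in GPR54-labelled arrays, against 0.527% of all higher and 0.579% either way: CYP1A1, CYP1A2 207608_x_at and CYP1B1 202436_s_at. There 7 were higher and 1 lower without overlap, against 7.76%, 5.91% and in either direction 13.7% of all. The difference of the peptide effects was called above 0 for CYP1A1, against 0.0458% of all. These counts use the low arrays that chose the set and share them with the first comparison.

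**Figure D3:**
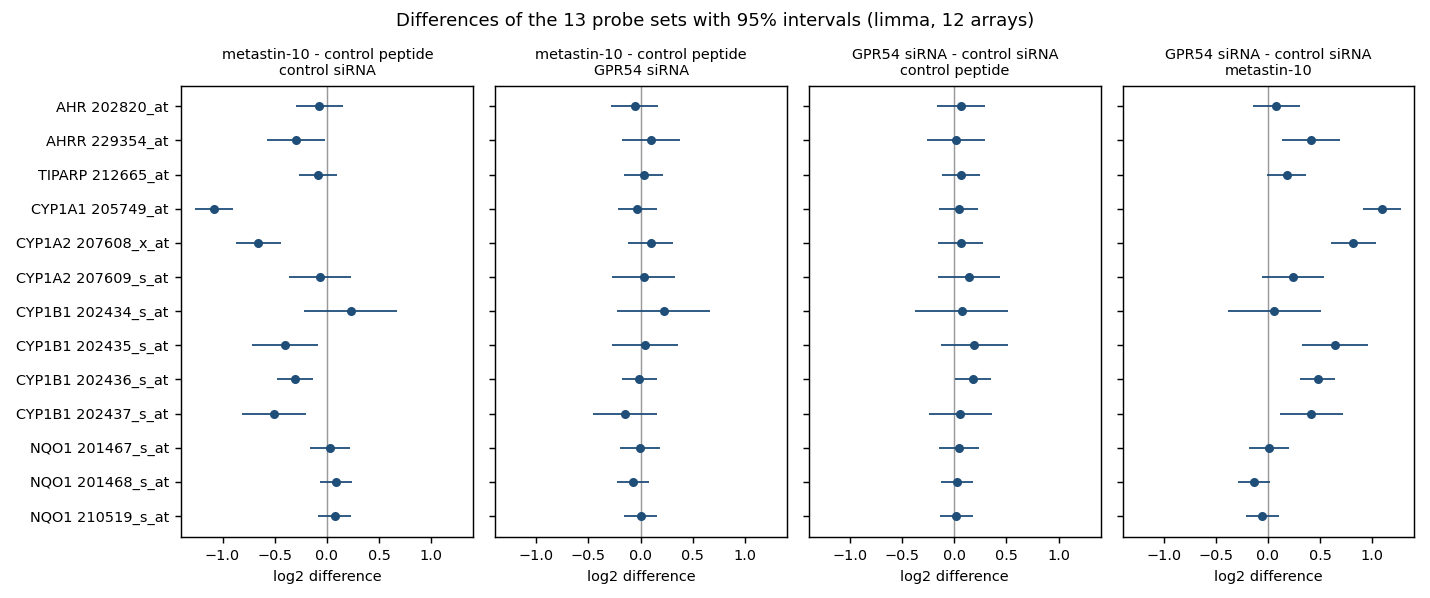
Log2 differences of the 13 probe sets with 95% intervals from limma, in the 4 pairwise comparisons, on a common horizontal axis. CYP1A1 lies at -1.08 in the first panel and 1.09 in the last, which share the control siRNA, metastin-10 arrays, and every interval but that of CYP1B1 202436_s_at covers 0 in the middle panels.

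Other genes of the pathway gave no call in any comparison at 1 probe set per gene. With metastin-10 under control siRNA, 0.607% of all genes were called and the median over all genes was 0.0072. In the other 4 comparisons 0%, 0%, 1.04% and 0.106% of all genes were called, in the order peptides under the GPR54 label, siRNA with control peptide, siRNA with metastin-10 and difference of peptide effects. Of the chaperones that hold AHR in the cytoplasm, 4 were measured, with a median of 0.06, and HSP90AA1 was at 0.14 ± 0.07 (log2, SE) and HSP90AB1 at 0.09 ± 0.07. Of the partners and coregulators, 13 of 16 were measured, with a median of -0.10. ARNT, the obligate partner, was at -0.07 ± 0.14, and ESR1, the oestrogen receptor with which AHR interacts, at -0.28 ± 0.13. Of these lists, 1 of 4 and 10 of 13 genes lay below 0. With the GPR54 label, the medians were -0.0053 and -0.08.

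Further genes that AHR can induce lay on both sides of 0. Of 14 measured, 5 lay below 0 with metastin-10 under control siRNA, and the median was 0.15. ALDH3A1, an aldehyde dehydrogenase of the same gene battery, was at -0.30 ± 0.11 (log2, SE) with overlapping groups. CYP2S1, a further P450 that AHR induces, was at 0.37 ± 0.14 with groups that did not overlap. The spread of the list ran from -0.30 to 0.42 there and from -0.25 to 0.19 in GPR54-labelled arrays, where its median was -0.03. Genes under NRF2, the oxidative stress factor that shares NQO1 with AHR, had a median of 0.04 over 24 measured, and 10 lay below 0. GCLM, a subunit of glutathione synthesis, was at 0.26 ± 0.08 and the aldo-keto reductase AKR1B10 at 0.30 ± 0.11. Both were without overlap and neither was past the threshold.

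Among the 52 other cytochrome P450 genes measured, 19 lay below 0 with metastin-10 under control siRNA and the median was 0.09. The lowest was CYP4X1, at -0.54 ± 0.16, and CYP2E1, at 0.28 ± 0.08, had the smallest p, neither past the threshold. The size of -1.08 at CYP1A1 lay beyond all 52, but this comparison chose CYP1A1, so nothing is read from its rank. In GPR54-labelled arrays these genes ran from -0.21 to 0.23, with a median of -0.0052. The genes of P450 electron supply and oestrogen metabolism (14 measured) had a median of 0.03, with the steroid 17-hydroxylase gene CYP17A1 at 0.23 ± 0.11 and CYP11A1 at 0.27 ± 0.18. The genes that form AHR ligands from tryptophan (12 measured) had a median of -0.03, with the transaminase gene KYAT3 at -0.17 ± 0.09 and IL4I1 at -0.14 ± 0.09.

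The relatives of AHR in the bHLH-PAS family (14 measured) had a median of -0.02 in the same comparison. NPAS3 was at -0.25 ± 0.12 and NPAS2 at -0.16 ± 0.09 (log2, SE). HIF1A, the hypoxia-inducible subunit that also pairs with ARNT, was at 0.03 ± 0.07. The other mono-ADP-ribosyltransferases (11 measured), relatives of TIPARP, had a median of -0.13 and 8 lay below 0, while PARP14 was at 0.41 ± 0.16 and PARP11 at -0.26 ± 0.12. None of these values passed the threshold.

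**Figure D4:**
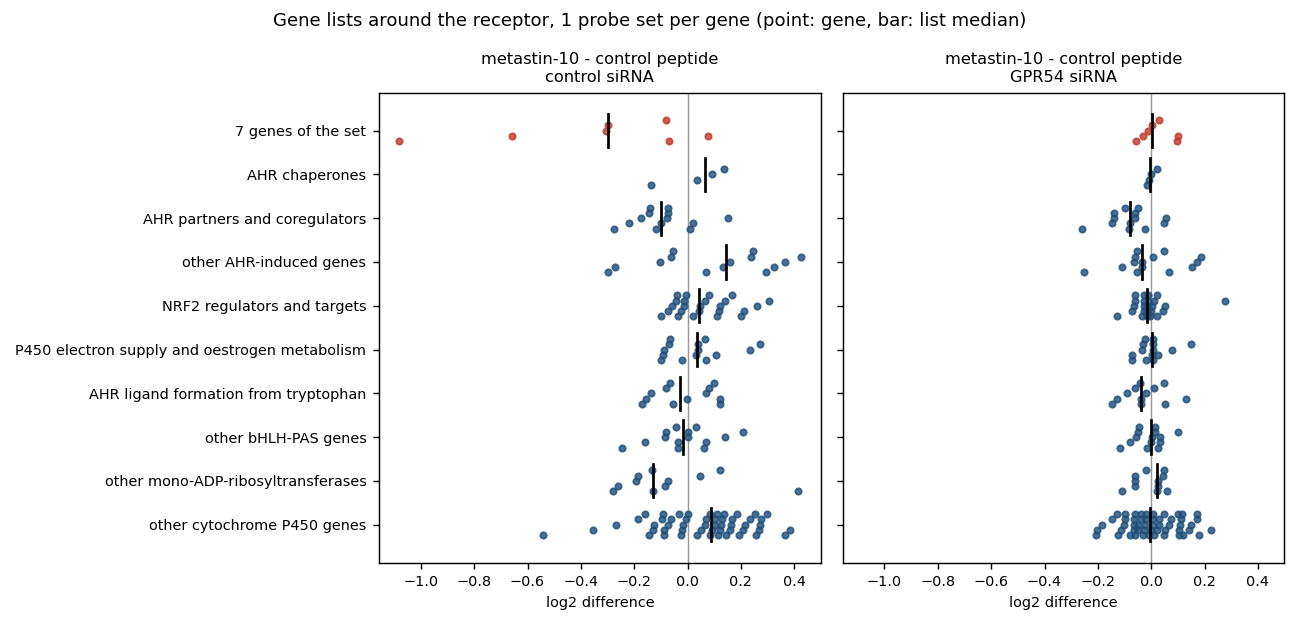
Log2 difference between metastin-10 and control peptide for each gene (points, 1 probe set per gene) of the set and of 9 lists around the receptor, under control siRNA (left) and in GPR54-labelled arrays (right), with list medians as bars. CYP1A1 at -1.08 and CYP1A2 207608_x_at at -0.66 lie beyond every listed gene on the left, the comparison that chose CYP1A1. On the right all lists lie close to 0.

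The epithelial markers read lower in the same arrays as CYP1A1. Their mean level was 11.74 to 11.84 with control siRNA and metastin-10, below the 11.95 to 12.10 of the other 3 groups, and all 6 lay below 0 in that comparison, with KRT19 at -0.48 ± 0.07 and MUC1 at -0.42 ± 0.11. KRT19 was past the threshold and the other 5 were not, against 0.607% of all genes called in that comparison. Between siRNA labels with metastin-10, which uses the same low arrays, 2 of the 6 were called higher. In that second comparison 1.04% of all genes were called. The stromal fibroblast, endothelial and leukocyte markers stayed near or below the array medians in every group, with 0 called. The leukocyte markers were at 4.33 to 4.56 with control siRNA and metastin-10 and at 4.10 to 4.49 elsewhere. All 5 measured leukocyte markers lay above 0 with metastin-10 under control siRNA, from 0.04 to 0.32. The part of these shifts in the CYP1A1 difference was not tested. All arrays are of a single cell line, so the marker lists are not read as shares of cell types. In bulk RNA, fewer cells expressing a gene and less of its RNA per cell cannot be told apart.

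The genes whose profile over the 12 arrays was most like that of CYP1A1 were NREP (Pearson r = 0.992), FKBP1B (0.991), DDIT4 (0.988), G0S2 (0.985), TSC22D3 (0.982) and BNIP3L (0.982). The most opposite were ODC1 (-0.984), AMIGO2 (-0.981) and MYEOV (-0.965). All share the 3 arrays of control siRNA with metastin-10 as an extreme group. DDIT4, for example, averaged 12.13 ± 0.08 in the double control group, 11.26 ± 0.05 with control siRNA and metastin-10, and 12.19 ± 0.03 and 12.23 ± 0.03 in GPR54-labelled arrays. Without those 3 arrays the correlation with CYP1A1 over the remaining 9 ran from 0.03 for G0S2 to 0.65 for NREP among the 6 genes. Within the set, r with CYP1A1 over 12 and over 9 arrays was 0.92 and 0.10 for CYP1A2 207608_x_at, 0.92 and 0.42 for CYP1B1 202436_s_at, 0.72 and 0.29 for AHRR, 0.65 and 0.30 for TIPARP and 0.42 and 0.74 for AHR. The NQO1 probe sets gave -0.53 and 0.20 (210519_s_at), -0.68 and 0.26 (201468_s_at) and 0.10 and 0.60 (201467_s_at). For the remaining sets the values were 0.37 and -0.13 for CYP1A2 207609_s_at, and -0.16 and -0.05, 0.80 and 0.02, and 0.79 and 0.50 for CYP1B1 202434_s_at, 202435_s_at and 202437_s_at.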

How the data were processed

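The deposited values are on the log2 scale, from RMA by the authors, as the submitters' processing notes name it: background correction, quantile normalization and a summary per probe set. Its software: not given in the sources used here. Quantile normalization would hide a change shared by most genes, and differences of dim sets may be compressed. Detection calls were not used here. With 3 arrays a group, their number limits the precision.

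Of 54675 probe sets, 62 controls were left out and 54613 tested without a filter. Names came from the platform annotation: 41091 had 1 gene, 1801 several (not named) and 11721 none listed. The brightest set by its mean over 12 arrays stood for a gene in lists. limma 3.58.1 in R 4.3.3 fitted 4 group means over all arrays (8 residual degrees of freedom, empirical Bayes), two-sided, with Benjamini-Hochberg adjustment over all probe sets and a threshold of 0.05. The code was tested on simulated data. The genes of the set and the lists were chosen with earlier results of these data known. Named in each list are members past the threshold in any comparison, or up to 2 with the smallest p; others were named after their values were seen. Likeness was Pearson r over 12 arrays, the 6 highest and 3 lowest for CYP1A1, and up to 3 with r of at least 0.9 for other genes.

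Replicate numbers are shared between groups in the labels. After subtracting group means, arrays of the same number correlated by 0.17 to 0.44 (peptides, control siRNA) and 0.26 to 0.52 (peptides, GPR54 siRNA label). Between siRNA labels they correlated by 0.11 to 0.54 with control peptide and by -0.15 to 0.26 with metastin-10. Except in the last comparison, the numbers were taken as pairs, from the data, when reading same-numbered differences and the replicate block. The main fit held no pairs, so its SEs, intervals, p-values and calls treat the arrays as unpaired. Alternatives were the replicate block, replicate 3 as a batch, 2 groups only, array weights, an intensity trend, a level filter, renormalization and leaving out each array.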

Additional observations from a re-analysis of the deposited data

Results flagged for a closer look

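The metastin-10 effect on CYP1A1 differed between the siRNA labels by 1.05 on the log2 scale in the fit over all probe sets, the effect under GPR54 siRNA label minus that under control siRNA. It is listed here because the interaction term was past the threshold, in a comparison that chose the gene. CYP1A2 207608_x_at had the corresponding difference of 0.755. Its same-numbered arrays were all lower with metastin-10 under control siRNA and all higher in GPR54-labelled arrays, and the interaction term did not pass. No group has enough arrays for a check on single outlying samples.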

How the results depend on the processing

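Leaving out 1 array, CYP1A1 ran from -1.14 to -1.03 for metastin-10 under control siRNA and from 1.03 to 1.15 between siRNA labels with metastin-10. Both values chose the set, and their range is no support for it. Its difference of peptide effects ran from 0.99 to 1.11 leaving out 1 array. It lost its call without replicate 2 of the GPR54 siRNA, metastin-10 group (1.04) and with replicates 1 and 2 only (1.14), a setting added after seeing the data. In the comparisons without a call it lay close to 0 and crossed it: with metastin-10 in GPR54-labelled arrays it was 0.0167 with replicates 1 and 2 only and ran from -0.0721 to 0.0177 leaving out 1 array, and for the siRNA label with control peptide from 0 to 0.0725. The count of called probe sets for metastin-10 under control siRNA, 2, was 1 with only the 2 groups compared and with replicates 1 and 2 only, and 1 to 2 leaving out 1 array. CYP1A2 207608_x_at lost its call without replicate 1 (-0.62) or 2 (-0.64) of control siRNA with control peptide and without replicate 1 of control siRNA with metastin-10 (-0.60). Between siRNA labels with metastin-10 the count, 3, was 1 with only the 2 groups compared, 5 with the replicate block, 6 with array weights and 2 to 4 leaving out 1 array. CYP1B1 202436_s_at lost its call there without replicate 1 (0.45) or 2 (0.46) of the control siRNA group or 1 (0.44) or 2 (0.48) of the other. For the difference of peptide effects the count, 1, was 2 with array weights or an intensity trend, 0 with replicates 1 and 2 only and 0 to 1 leaving out 1 array. The causes were not tested. With the replicate block, the pairing added CYP1B1 202437_s_at (-0.51) under control siRNA and changed no call in the other paired comparisons. Of 1168 values of the other 6 genes called neither way, 62 crossed 0, none larger than 0.21 in size. No called value changed sign. Over all 54613 probe sets the counts behind the background shares moved by over 1.5 times: 234 for metastin-10 under control siRNA became 422 with the block and ran from 77 (2 groups only) to 532 (replicate 3 as a batch), 29 for the siRNA label with control peptide became 51 and ran from 0 to 130, 316 with metastin-10 became 504 and ran from 57 to 2016, and 28 for the difference of effects became 45 and ran from 2 to 250, leaving out single arrays aside. Metastin-10 under the GPR54 label gave 0 throughout those settings.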

Other observations

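The other genes of the set also had close neighbours in profile over the 12 arrays, given as a description. Most like AHR were MEIS3P1 (Pearson r = 0.94), BLOC1S3 (0.93) and NAP1L2 (0.93), and most like AHRR were HHAT (0.97), BRD8 (0.95) and ENHO (0.93). TIPARP was followed by DRC12 (0.94), MIEF2 (0.94) and ZNF34 (0.93), and NQO1 210519_s_at by NDUFAF4 (0.92), TLX3 (0.91) and NUP42 (0.91). For CYP1A2 207608_x_at the highest values were those of AIG1 (0.98), KLF4 (0.98) and PGK1 (0.97), and for CYP1B1 202436_s_at those of BEND5 (0.98), PGM1 (0.98) and ANKRD37 (0.98). With 19775 genes and 12 arrays, high values are reached by many genes, and all arrays share the 4 groups.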
